A study of Mus musculus with 10 samples.

Results

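Livers of mice with a LIRKO parent were compared with livers of control offspring. The 6 offspring libraries, 3 with a LIRKO father and 3 with a LIRKO mother, were set against 4 control libraries in a single comparison, and the genes of interest are those that lay on the same side of the controls in both kinds of offspring. These 10 libraries are all 10 of the series. LIRKO mice carry floxed insulin receptor alleles (IRlox/lox) and Albumin-Cre+/-, a Cre driven by the albumin promoter, which is active in hepatocytes, so the receptor is deleted in those cells and not in the rest of the body. Control parents were IRlox/lox without Cre (Albumin-Cre-/-), from lines crossed for 4 generations. FL offspring (libraries FL 5, FL 6 and FL 7) had a LIRKO father and a control mother. ML offspring (ML 8, ML 9 and ML 10) had a control father and a LIRKO mother. Controls 1 to 4 had 2 control parents. All parents thus shared the floxed alleles, while the Cre status, sex, age, litter and feeding state of the offspring are not in the labels. The labels do not say whether the samples came from separate animals or litters, so the p-values reflect the spread between libraries, which may be technical.

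Insulin acts on hepatocytes through its receptor, insulin receptor substrates and AKT. The pathway restrains FOXO1, a transcription factor that drives genes such as Igfbp1, Irs2 and G6pc, raises lipid synthesis through SREBP1c, and promotes storage of glucose as glycogen. Immediate early genes are a different class: they are transcribed within minutes of a stimulus from promoters that already hold their activators, and many encode short-lived transcription factors such as FOS, JUN, EGR1 and NR4A1. In liver they respond to hormones such as glucagon, to feeding and to injury.

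Library totals were 18655506 counts in control 1 and 23192571 to 39379940 in the others. On the first principal component, which held 52.5% of the variance, ML 9 (-144) and control 1 (-80.6) stood apart from the other 8 libraries (-34.6 to 71.5). The median log2 deviation of short genes (exons under 1000 bp in total) from their mean over the libraries was 1.72 in ML 9 and 0.53 in control 1, against -0.58 to 0.37 elsewhere. The 6 hepatocyte markers, among them Alb and Ttr, summed to 54473 to 99808 CPM in every library. CPM here is edgeR's count of a gene relative to its library's total after scaling.

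The gene of the insulin receptor itself, Insr (ENSMUSG00000005534, chromosome 8, 3122061 to 3279617 on GRCm38, the build of all coordinates here), was present in every library. Control livers 1 to 4 had 62.9, 82.2, 128 and 69.1 CPM, FL livers 77.6, 59.3 and 59.4 CPM, and ML livers 54.4, 28.2 and 55.2 CPM. The groups overlapped, since FL 5 lay above controls 1 and 4. Insr had a log2 fold change of -0.64 (SE 0.28) for either parent against control, with an edgeR adjusted p of 0.902, and was at -0.38 without control 3. Counts cover the whole gene, and which stretch is floxed is not stated, so they are no full check of whether an offspring carried the deletion.

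No gene passed the test for either LIRKO parent against control. Of 14820 genes tested with edgeR's quasi-likelihood F test, 0 (0%) had a Benjamini-Hochberg adjusted p under 0.05, and the lowest was 0.0715. At the looser adjusted p under 0.10 there were 6 genes (0.0405%), each of them lower in the offspring: Ppp1r3g, Nr4a1, Fosb, Egr1, Cyp2b9 and Rgs1. Without adjustment, 792 genes (5.34%) had a p under 0.05, 562 lower (3.79%) and 230 higher (1.55%). That total share is close to what a threshold of 0.05 gives when no gene differs. Leaving out control 1 gave 2514 genes at that unadjusted p, control 2 gave 489, control 4 gave 492 and FL 7 gave 494. Without control 1 and ML 9 there were 2856, 1719 lower and 1137 higher. With a surrogate variable in the model the genes split into 438 lower and 442 higher. DESeq2 on the same genes called 38 (0.256%), 29 lower (0.196%) and 9 higher (0.0607%).

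A stricter question is whether a gene lay on the same side of the controls in FL and in ML, each tested by itself. Again 0 genes (0%) passed with edgeR, where a gene's p is the larger of its FL and ML p-values and the lowest adjusted value was 1. At an unadjusted larger p under 0.05 there were 111 genes (0.749%), 75 lower (0.506%) and 36 higher (0.243%), and 265 without control 1 or 69 without FL 7. DESeq2 called 6 genes in both groups (0.0405%): Rgs1, Fosb, Gdf15, Elovl5, Nr4a1 and Egr1, each of them lower. FL and ML are compared with the same 4 controls, so their values are given side by side below and nothing is read from their likeness. In 145 genes (0.978%) the 6 offspring libraries did not overlap the 4 controls, 63 lower (0.425%) and 82 higher (0.553%). The 10 genes of lowest p on each side among those with a mean of at least 1 CPM are described next, beside the gene lists they belong to. Lack of overlap is thus a condition of their choice and not a finding about them.

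**Figure D1:**
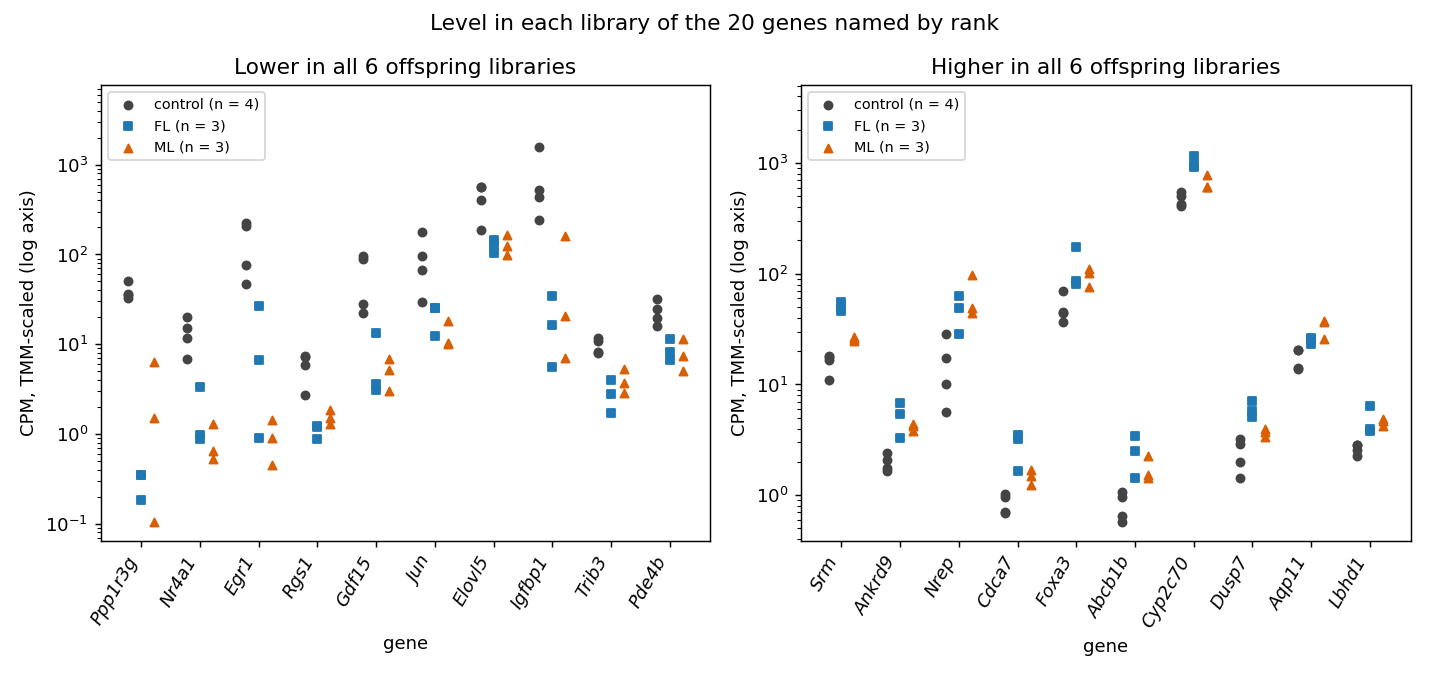
CPM of the 20 genes in each of the 10 libraries on a log axis, controls as circles, FL as squares and ML as triangles. Left, the 10 lower genes, from Ppp1r3g (0.105 to 6.36 CPM in the offspring, 33.0 to 50.8 in controls) to Pde4b; right, the 10 higher genes from Srm to Lbhd1; that the 6 offspring lie outside the range of the controls is fixed by the choice of these genes.

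**Figure D2:**
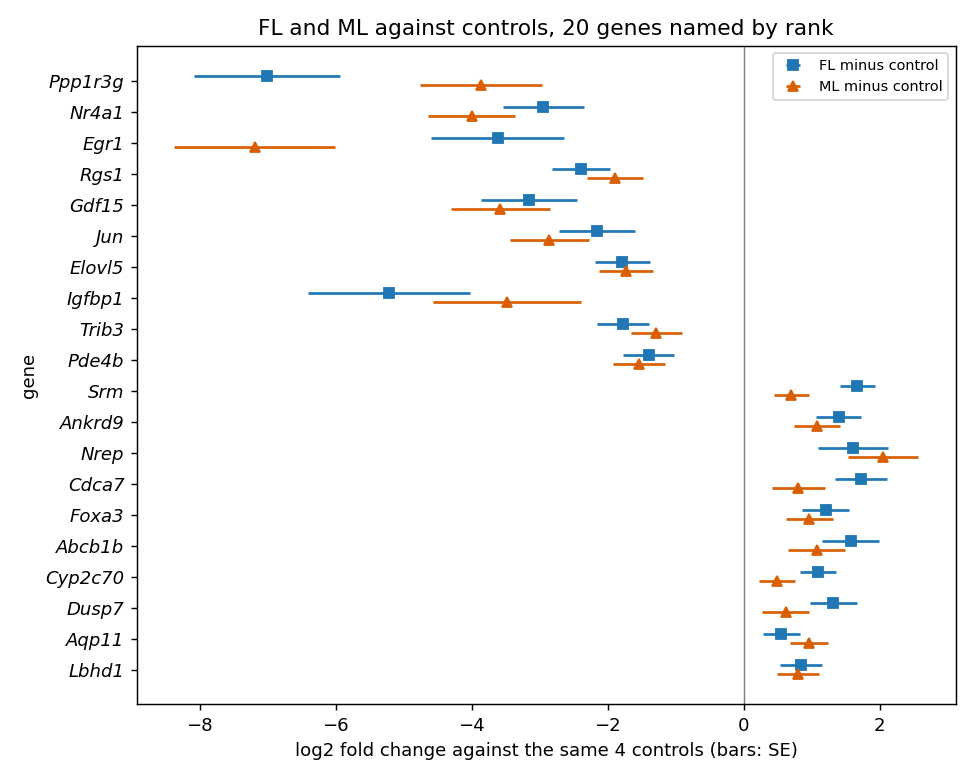
Log2 fold change of the same 20 genes for FL (squares) and ML (triangles) against the same 4 controls, with bars of 1 SE. Both values lie on one side of 0 for each gene, as the choice of genes requires; Elovl5 has nearly equal values (-1.79 and -1.73), and Ppp1r3g (-7.01 and -3.86) and Egr1 (-3.62 and -7.19) lie furthest from each other.

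Immediate early genes stood out among the lower genes. Promoters of 5 of them, chosen with their values known, are shown with matches to a motif of the cyclic AMP pathway. The sequences are the 250 bases before the transcription start in RefSeq, on the GRCm38.p6 build, read 5′ to 3′ on the strand of the gene. Capitals mark each match to TGACG or its reverse complement CGTCA, the half-site of the cyclic AMP response element; the full element TGACGTCA holds both half-sites, which overlap. They are Nr4a1 (chr15:101266596-101266845, plus strand), Fos (chr12:85473640-85473889, plus strand), Fosb (chr7:19310046-19310295, minus strand), Btg2 (chr1:134079156-134079405, minus strand) and Jun (chr4:95052223-95052472, minus strand).
Nr4a1: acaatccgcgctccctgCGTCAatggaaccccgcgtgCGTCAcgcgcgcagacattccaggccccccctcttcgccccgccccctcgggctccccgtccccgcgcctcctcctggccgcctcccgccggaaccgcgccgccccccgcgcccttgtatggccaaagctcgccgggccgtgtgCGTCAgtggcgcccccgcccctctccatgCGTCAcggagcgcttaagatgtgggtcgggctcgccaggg
Fos: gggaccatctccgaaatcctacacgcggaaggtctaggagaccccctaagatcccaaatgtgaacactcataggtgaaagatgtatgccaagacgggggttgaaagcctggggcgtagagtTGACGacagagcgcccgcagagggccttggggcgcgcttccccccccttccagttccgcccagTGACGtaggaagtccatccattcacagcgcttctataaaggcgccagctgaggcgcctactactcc
Fosb: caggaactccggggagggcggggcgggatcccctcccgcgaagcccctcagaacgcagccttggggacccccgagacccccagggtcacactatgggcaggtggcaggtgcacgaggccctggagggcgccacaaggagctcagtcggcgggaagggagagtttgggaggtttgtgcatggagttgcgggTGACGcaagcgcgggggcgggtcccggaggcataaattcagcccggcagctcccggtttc
Btg2: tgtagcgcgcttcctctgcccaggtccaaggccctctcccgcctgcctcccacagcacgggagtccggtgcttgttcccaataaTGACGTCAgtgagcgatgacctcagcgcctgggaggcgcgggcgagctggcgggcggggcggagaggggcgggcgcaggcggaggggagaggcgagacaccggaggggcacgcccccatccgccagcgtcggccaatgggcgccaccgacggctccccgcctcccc
Jun: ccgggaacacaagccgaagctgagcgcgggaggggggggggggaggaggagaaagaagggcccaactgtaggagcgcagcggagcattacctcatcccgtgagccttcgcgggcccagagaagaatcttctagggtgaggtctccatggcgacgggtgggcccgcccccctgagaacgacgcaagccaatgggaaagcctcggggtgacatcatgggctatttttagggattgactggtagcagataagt
The Nr4a1 window holds 4 half-sites, the Fos window 2 and the Fosb window 1. Btg2 holds 1 full element, and Jun has none of these letters in its window. Of 29 immediate early genes tested, 23 matched a RefSeq promoter, with 27 promoters in all. A half-site was found in 16 of these (59.3%), against 5836 of 32851 promoters of the same length (17.8%). The full element was found in 2 of the 27 (7.41%), those of Btg2 and Dusp1, against 508 of all promoters (1.55%). Egr1, Rgs1 and Gdf15 were not among the genes with a half-site, though not every gene had a matched promoter. The comparison with all promoters took no account of base content. A match is a description of the letters, and no binding was measured.

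Nr4a1 (ENSMUSG00000023034, chromosome 15, 101254269 to 101274795) encodes an orphan nuclear receptor. Controls 1 to 4 had 11.7, 20, 15.1 and 6.88 CPM. The FL livers had 0.963, 3.36 and 0.874 CPM and the ML livers 0.525, 0.652 and 1.30 CPM. Every offspring library lay under the lowest control, and FL 6 was the highest of the 6. Control livers averaged 13.4 ± 5.52 CPM (SD, n = 4), offspring 1.28 ± 1.05 CPM (SD, n = 6), with a log2 fold change of -3.47 (SE 0.47) and an edgeR adjusted p of 0.0715. The value was -2.94 in FL and -4.00 in ML, and ML minus FL had an edgeR adjusted p of 0.316. With DESeq2 the adjusted p was 3.26e-09.

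Egr1 (ENSMUSG00000038418, chromosome 18, 34859823 to 34864984), a zinc finger transcription factor, spanned a wider range. Controls had 47.0, 75.4, 210 and 227 CPM, FL livers 6.59, 26.6 and 0.903 CPM and ML livers 0.893, 0.456 and 1.43 CPM. The groups did not overlap, and within FL the values ran from under 1 CPM in FL 7 to 26.6 CPM in FL 6. The control mean was 140 ± 91.9 CPM (SD, n = 4) and that of the offspring 6.15 ± 10.3 CPM (SD, n = 6), a log2 fold change of -5.41 (SE 0.80) with an edgeR adjusted p of 0.0733. ML lay lower than FL (-7.19 against -3.62), a difference that did not pass (edgeR adjusted p of 0.238). With DESeq2 Egr1 had the lowest adjusted p of all genes, 1.00e-10.

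The AP-1 factors, made of FOS and JUN family proteins, followed the same order. Jun (chromosome 4, 95049034 to 95052222) had 29.3, 97.1, 178 and 67.7 CPM in controls, 25.1, 25.1 and 12.3 CPM in FL, and 9.98, 10.2 and 18.3 CPM in ML. The lowest control, control 1, was close to FL 5 and FL 6, and the groups did not overlap. Jun was at -2.51 (SE 0.44; edgeR adjusted p of 0.193). An antisense transcript, Junos, overlaps an exon of Jun, and without the strand setting of the counting the reads of both cannot be told apart.

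Fosb had 4, 51, 160 and 134 counts in controls, 3, 6 and 4 in FL and 1, 0 and 1 in ML, with an edgeR adjusted p of 0.0720. After scaling, its offspring values all lay under the controls, but the few counts in the offspring give no firm size of the difference. Fos, which like Btg2 below was chosen after its values were seen, had 2.34, 9.91, 16 and 16.3 CPM in controls, 1.33, 4.84 and 0.728 CPM in FL and 0.420, 0.196 and 0.682 CPM in ML. FL 6 lay above control 1, so its groups overlapped. Fos was at -3.44 (SE 0.62) with an edgeR adjusted p of 0.204, and DESeq2 called it.

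Rgs1 and Gdf15 complete the members of the immediate early list that were low in every offspring library and came first by p. Neither is a transcription factor. The list was drawn up with earlier results of these data known, so its counts are no independent evidence. Rgs1 (chromosome 1, 144242296 to 144249242), which speeds the switching off of G proteins and is best known in lymphocytes, had 7.18, 7.31, 5.82 and 2.74 CPM in controls, 1.22, 1.19 and 0.874 CPM in FL and 1.29, 1.5 and 1.86 CPM in ML. Its offspring values were even, with a mean of 1.32 ± 0.332 CPM (SD, n = 6) against 5.76 ± 2.13 CPM (SD, n = 4) and a log2 fold change of -2.14 (SE 0.33; edgeR adjusted p of 0.0733). The summed level of 7 T and NK cell markers was 2.24 to 3.59 CPM in controls and 1.82 to 13.2 CPM in offspring, and that of 5 B and plasma cell markers 1.33 to 8.95 and 2.04 to 11.4 CPM. Both upper limits in the offspring were ML 9, and the next values were 3.94 and 3.10 CPM. The part of these cells in the Rgs1 values was not tested. In bulk tissue, fewer cells of a type and less RNA per cell cannot be told apart.

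Gdf15 (chromosome 8, 70629393 to 70632456) encodes a secreted stress hormone of the TGF-beta family that lowers food intake. Controls had 22.5, 90.0, 97.3 and 28 CPM, FL livers 3.59, 13.3 and 3.12 CPM and ML livers 3.02, 6.85 and 5.15 CPM. Controls 2 and 3 were higher than controls 1 and 4, and all of them lay above the offspring. The control mean of 59.4 ± 39.7 CPM (SD, n = 4) compared with 5.84 ± 3.95 CPM (SD, n = 6) in the offspring, at a log2 fold change of -3.37 (SE 0.55) with an edgeR adjusted p of 0.112. FL and ML were at -3.15 and -3.58.

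Over the whole list, 28 of 29 immediate early genes tested, of 32 listed, lay below 0 for either parent, and the same number lay below 0 in FL and in ML each. The median log2 fold change was -1.58, with -1.35 in FL and -1.89 in ML, against -0.03 over all 14820 genes, of which 52.9% lay below 0. None passed with edgeR. At an unadjusted p under 0.05, 23 were lower (79.3%, against 3.79% of all genes), and 7 were low in every offspring library without overlap (24.1%, against 0.425%). DESeq2 called 8 as lower, beside 29 lower genes among all 14820 (0.196%). Ier5 was the member above 0, at 0.62. Members share inducing stimuli and are not independent of each other. Control 2 was the highest library for several members, among them Btg2, an antiproliferative gene, which had 10.8, 224, 39.4 and 33.4 CPM in controls and 2.80 to 27.2 CPM in offspring. Without control 2 the list's median was -0.97, and without control 1 and ML 9 it was -1.65. By library, the list's median log2 deviation from the mean of all libraries was 0.12 in FL 6 and -0.01 in control 1. Over the list as a whole, offspring and controls thus overlapped.

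**Figure D3:**
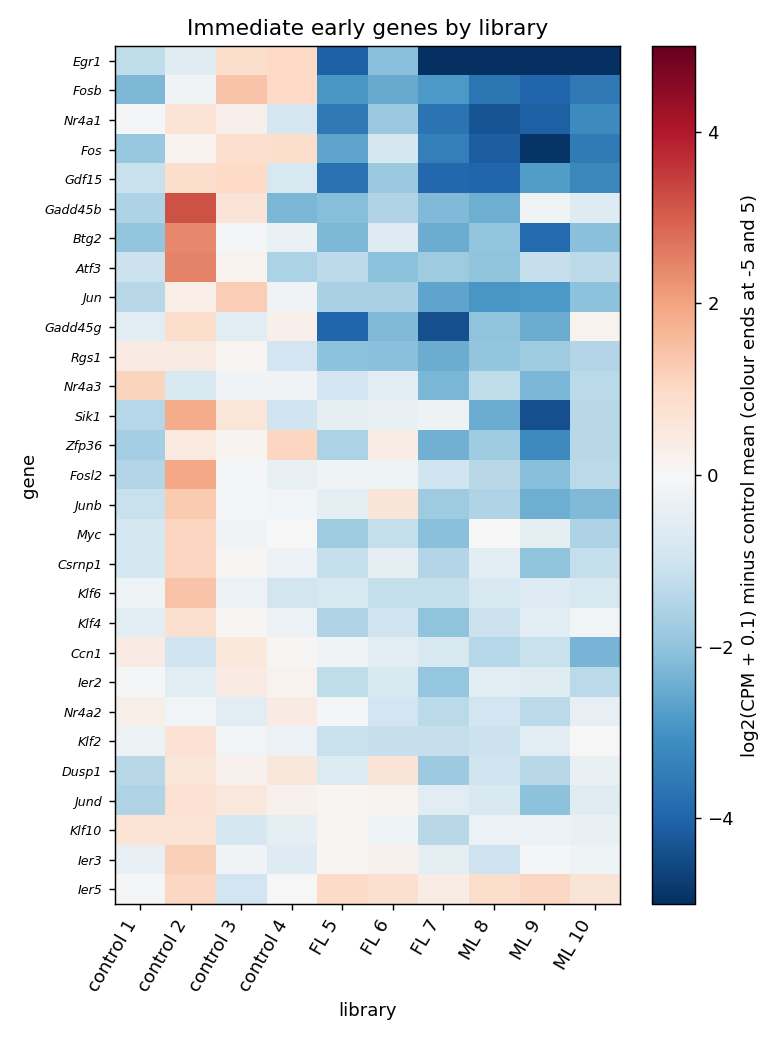
Log2 deviation of the 29 immediate early genes tested from their control mean, in each of the 10 libraries (genes down, libraries across), on the log2(CPM + 0.1) scale. Most offspring squares lie below 0; Ier5 is the member above 0 for both kinds of offspring, and control 2 is the highest control for genes such as Btg2.

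Ppp1r3g had the lowest p of all genes together with Nr4a1. It encodes a glycogen-targeting subunit that brings protein phosphatase 1 to glycogen, where the phosphatase activates glycogen synthase; in liver it is known as a gene that changes with fasting and feeding. At chromosome 13, 35958839 to 35970388 (ENSMUSG00000050423), it had 50.8, 33.0, 35.4 and 36.4 CPM in controls 1 to 4. FL livers had 0.185, 0.347 and 0.349 CPM, on 5, 12 and 12 counts. ML livers had 0.105, 1.5 and 6.36 CPM, on 4, 23 and 205 counts. All 6 offspring lay far under the controls, and within ML the values spread from that of FL to ML 10. Means were 38.9 ± 8.09 CPM (SD, n = 4) and 1.47 ± 2.45 CPM (SD, n = 6), with a log2 fold change of -5.44 (SE 0.73), an edgeR p of 9.34e-06 and an adjusted p of 0.0715. It passed without ML 8 or without ML 10, with limma-voom, with sample quality weights and with the exon length and GC trend removed, and over 22 settings its log2 fold change ran from -6.38 to -4.72 and its adjusted p from 0.00443 to 0.536. DESeq2 gave it no adjusted p. ML minus FL had an edgeR adjusted p of 0.238.

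The other glycogen genes did not share this difference. Of 21 tested, 17 lay below 0 (81.0%, against 52.9% of all genes) with a median of -0.13 (FL -0.21, ML -0.13), and 1 was lower at an unadjusted p under 0.05 (4.76%, against 3.79%), Ppp1r3g. Gckr, a regulatory protein of liver glucose metabolism, had a log2 fold change of -0.57 (SE 0.28).

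Igfbp1, a FOXO1 target that encodes a liver-secreted binding protein of insulin-like growth factors, was lower in every offspring library. It lies on chromosome 11 at 7197782 to 7202546. Controls had 245, 1596, 521 and 435 CPM, FL livers 5.56, 34.4 and 16.3 CPM, and ML livers 7.04, 20.5 and 160 CPM. ML 10 came closest to the controls, and the groups did not overlap. Control livers averaged 699 ± 609 CPM (SD, n = 4) and offspring 40.6 ± 59.3 CPM (SD, n = 6), with a log2 fold change of -4.35 (SE 0.85) and an edgeR adjusted p of 0.26. It was at -5.22 in FL and -3.48 in ML, and DESeq2 called it (adjusted p of 9.43e-06).

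Gluconeogenesis genes and FOXO1 targets as a list lay lower. Of 18 members, 16 were below 0 (88.9%, against 52.9% of all genes) with a median of -0.66 (FL -0.42, ML -0.77). At an unadjusted p under 0.05, 4 were lower (22.2%, against 3.79%), and Igfbp1 alone had no overlap (5.56%, against 0.425%). None passed with edgeR. The list's median was -0.38 without control 2 and -0.28 with a surrogate variable. G6pc, the enzyme that releases free glucose, had 835, 627, 986 and 1001 CPM in controls, 196, 185 and 498 CPM in FL and 187, 131 and 735 CPM in ML. ML 10 lay within the controls and the other 5 offspring below them, at a log2 fold change of -1.43 (SE 0.47; edgeR adjusted p of 0.902). Irs2, the insulin receptor substrate that FOXO1 induces, had 0.912, 12.8, 15.5 and 9.37 CPM in controls and 0.0652 to 5.44 CPM in offspring, and control 1 lay within the offspring. Its log2 fold change of -2.16 (SE 0.69; edgeR adjusted p of 0.902) was -1.17 with a surrogate variable.

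Trib3, a pseudokinase that binds AKT and is induced by amino acid stress, came first in the insulin signalling list. It had 11.9, 10.9, 8.20 and 7.91 CPM in controls, 2.78, 3.97 and 1.72 CPM in FL and 5.31, 2.87 and 3.69 CPM in ML (chromosome 2, 152337422 to 152344032). The groups did not overlap, at 9.71 ± 1.95 CPM (SD, n = 4) against 3.39 ± 1.23 CPM (SD, n = 6), a log2 fold change of -1.53 (SE 0.30) with an edgeR adjusted p of 0.26. Of the 34 insulin signalling genes tested, Trib3 included, 27 were below 0 (79.4%, against 52.9% of all genes), with a median of -0.22. The list differed by parent, with 12 below 0 and a median of 0.03 in FL, and 30 below 0 and a median of -0.49 in ML, a difference that was not tested. At an unadjusted p under 0.05, 3 were lower (8.82%, against 3.79% of all genes): Trib3, Irs2 and Insr. The median for either parent was 0.03 with a surrogate variable, -0.12 without ML 9 and -0.11 without control 3. By library, the list's median log2 deviation was -0.91 in ML 9, against -0.10 in ML 8 and -0.11 in ML 10. Among the controls it was lowest in control 1, at -0.46.

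Pde4b (chromosome 4, 102087543 to 102607259), a phosphodiesterase that breaks down cyclic AMP, had 32.3, 24.7, 15.9 and 19.7 CPM in controls, 8.26, 6.72 and 11.4 CPM in FL and 11.4, 7.43 and 5.02 CPM in ML. Its groups did not overlap either. The log2 fold change of -1.47 (SE 0.30) had an edgeR adjusted p of 0.33.

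Genes of fatty acid synthesis and remodelling came next, with an elongase and a desaturase of lowest p among them. Elovl5 (chromosome 9, 77917364 to 77984519), which elongates polyunsaturated fatty acids, had 558, 560, 186 and 409 CPM in controls, 143, 103 and 126 CPM in FL and 163, 123 and 99.7 CPM in ML. Offspring values kept to a narrow band of 126 ± 24.1 CPM (SD, n = 6) under controls at 428 ± 176 CPM (SD, n = 4), of which control 3 was the lowest. Elovl5 was at -1.76 (SE 0.32; edgeR adjusted p of 0.204), with -1.79 in FL and -1.73 in ML; ML minus FL had an edgeR adjusted p of 0.95. DESeq2 gave an adjusted p of 0.000268.

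Scd1, the desaturase that makes oleate, had 12470, 9820, 2611 and 5893 CPM in controls, 2148, 1747 and 2745 CPM in FL and 2066, 718 and 1343 CPM in ML. FL 7 lay just above control 3, so the groups overlapped. Scd1 was at -2.14 (SE 0.42; edgeR adjusted p of 0.26). Elovl3, an elongase of saturated and monounsaturated fatty acids, had 169, 406, 147 and 508 CPM in controls and 51.8 to 157 CPM in offspring, where ML 10 lay above control 3, and was at -1.86 (SE 0.37; edgeR adjusted p of 0.271), with an exon that overlaps Pitx3 on the other strand. Pnpla3, a lipid droplet protein with few reads (chosen after its values were seen), was low in every offspring library at -3.21 (SE 0.70).

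Of 27 lipogenesis genes tested, 20 lay below 0 (74.1%, against 52.9% of all genes). At an unadjusted p under 0.05, 8 were lower (29.6%, against 3.79%), and 2 were lower without overlap (7.41%, against 0.425%), Elovl5 and Pnpla3. DESeq2 called 5 as lower, beside 29 lower genes among all 14820 (0.196%), and edgeR called none. The list's median of -0.28 joined -0.08 in FL with -0.65 in ML, a difference that was not tested. It was -0.50 without ML 8 and -0.13 without ML 9. Fasn, the fatty acid synthase (also chosen after its values were seen), was at -0.26 in FL and -2.30 in ML, whereas Elovl5 and Pnpla3 had like values in both.

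Cholesterol synthesis genes, targets of SREBP2, lay below 0 in 25 of 26 cases (96.2%, against 52.9% of all genes) with a median of -0.64, -0.34 in FL and -1.01 in ML. None passed, 8 were lower at an unadjusted p under 0.05 (30.8%, against 3.79%), and in none did the 6 offspring lie outside the controls. Hmgcs1, which makes the precursor of mevalonate, had 157, 115, 462 and 257 CPM in controls, 161, 107 and 58.6 CPM in FL and 101, 38.1 and 40.1 CPM in ML. Control 3 was the highest, and FL 5 lay above 2 of the 4 controls. Hmgcs1 was at -1.62 (SE 0.45) and Dhcr7, of the last step, at -0.87 (SE 0.30). Without control 3 the list's median was -0.32.

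The named higher genes had log2 fold changes of 0.76 to 1.83, against -5.44 to -1.47 for the named lower ones, and Srm had the lowest p among them. Srm encodes spermidine synthase, which turns putrescine into spermidine (chromosome 4, 148591503 to 148594993). Controls had 11.1, 18, 17.6 and 16.6 CPM, FL livers 55.7, 49.7 and 46.0 CPM and ML livers 24.5, 26.6 and 25.9 CPM. The 3 groups formed 3 separate and narrow bands, with ML between controls and FL. The offspring mean was 38.1 ± 14.0 CPM (SD, n = 6) against 15.8 ± 3.21 CPM (SD, n = 4), at a log2 fold change of 1.19 (SE 0.23) with an edgeR adjusted p of 0.26 and a DESeq2 adjusted p of 2.59e-05. FL was at 1.67 and ML at 0.70, a difference that did not pass (edgeR adjusted p of 0.238).

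The polyamine list beside it was mixed: 13 of 17 tested members lay above 0 with a median of 0.17 (FL -0.11, ML 0.58), and 2 were higher at an unadjusted p under 0.05 (11.8%, against 1.55% of all genes), Srm and Odc1. Odc1, ornithine decarboxylase, the entry enzyme of the pathway, had 75.4, 65.0, 61.2 and 46.1 CPM in controls, 94.9, 74.6 and 137 CPM in FL and 109, 189 and 153 CPM in ML. FL 6 overlapped control 1 and the other 5 offspring lay above the controls. Odc1 was at 1.00 (SE 0.27; edgeR adjusted p of 0.784). Dhps, which uses spermidine to modify a translation factor, was at 0.78 (SE 0.43), and at 0.30 without ML 9, whose 42.7 CPM stood apart.

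Nrep, on chromosome 18, had 28.4, 5.68, 10.0 and 17.5 CPM in controls, 28.6, 62.7 and 49.1 CPM in FL and 44.2, 49.3 and 97.8 CPM in ML. FL 5 lay barely above control 1, so the separation of the groups rests on those 2 libraries. Nrep was at 1.83 (SE 0.46; edgeR adjusted p of 0.769). Ankrd9 had 2.39, 1.76, 2.10 and 1.64 CPM in controls, 3.26, 5.44 and 6.81 CPM in FL and 4.41, 4.24 and 3.81 CPM in ML, and was at 1.24 (SE 0.30; edgeR adjusted p of 0.617).

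Foxa3, a forkhead factor that helps to keep hepatocyte genes open, had 36.8, 70.3, 45.5 and 44.3 CPM in controls, 175, 85.6 and 81.0 CPM in FL and 76.4, 111 and 101 CPM in ML. FL 5 was the highest, and all offspring lay above control 2, the highest control. Cyp2c70, which makes muricholic acids in mouse bile, had 412, 551, 430 and 504 CPM in controls, 960, 922 and 1158 CPM in FL and 606, 781 and 611 CPM in ML. As for Srm, ML lay between controls and FL. Foxa3 was at 1.09 (SE 0.30) and Cyp2c70 at 0.79 (SE 0.23), with edgeR adjusted p-values of 0.784 and 0.797. Reads of Cyp2c70 can be shared with other genes of its family.

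The remaining higher genes were of low or moderate level. Cdca7, a cell cycle gene, was at 1.26 and Abcb1b, a drug efflux pump, at 1.32; the controls of both had at most 1.07 CPM. Dusp7, a phosphatase of ERK, was at 0.97, Aqp11, a water channel, at 0.76 and Lbhd1 at 0.82. An exon of Abcb1b overlaps a gene on the other strand, and Lbhd1 shares exons with other genes on its own strand, so their counts are uncertain. None of the 10 higher genes passed with edgeR; DESeq2 called Srm, Ankrd9, Nrep and Cyp2c70.

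For some genes the combined value stood for one kind of offspring. In ML minus FL, 1 gene passed (0.00675%), and that was Cyp2b9, a cytochrome P450 with higher levels in female mouse liver. Controls had 8.03, 7.31, 5.85 and 14.6 CPM, FL livers 0.111, 0.145 and 0.0291 CPM and ML livers 11.4, 4.37 and 17.3 CPM. It was low in FL and within the range of the controls or close to it in ML. Its combined log2 fold change of -3.11 (SE 0.46; edgeR adjusted p of 0.0733) joined -6.51 in FL with 0.30 in ML, and ML minus FL was 6.81 with an edgeR adjusted p of 0.0144. FL against control by itself called 2 genes with edgeR (0.0135%), Cyp2b9 and Moxd1. Cyp2b genes share reads with near-identical copies.

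Moxd1, a monooxygenase-like gene, had 0.0448 to 0.518 CPM in controls, 58.7, 52.7 and 159 CPM in FL and 0.552, 0.0652 and 0.0310 CPM in ML, so its combined value of 4.71 came from FL (8.97) and not from ML (0.46). Cyp4a14, a fatty acid hydroxylase and PPARA target, had a combined value of -3.11 (SE 0.80; edgeR adjusted p of 0.784) from -6.23 in FL and 0.02 in ML. Its controls spread widely, at 232, 730, 13.1 and 131 CPM, with FL livers at 2.81, 1.91 and 6.32 CPM and ML livers at 131, 194 and 513 CPM. For Cyp4a14, ML minus FL did not pass (edgeR adjusted p of 0.238), and the combined value was -1.97 without control 2. When the 6 offspring were fitted as 1 group, so that the 6 libraries entered a single mean, Cyp2b9 was at -0.69, Cyp4a14 at -0.97 and Moxd1 at 7.98.

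Such a split by parent was also seen in whole lists. Fatty acid oxidation and PPARA targets had a median of -0.18 over 35 members, with 25 below 0, from -0.55 in FL (34 below 0) and 0.24 in ML (14 below 0). Pdk4, the kinase that blocks pyruvate oxidation, was an exception with -3.31 in FL and -2.92 in ML; it had 3.76, 51.3, 12.9 and 8.23 CPM in controls and 1.51 to 3.94 CPM in offspring, and was at -1.92 without control 2. Female-biased liver genes had a median of -0.41 over 20 members, from -1.07 in FL and 0.18 in ML. Male-biased liver genes had a median of 0.42 over 29 members, 24 above 0, with 0.36 in FL and 0.26 in ML; 5 were higher at an unadjusted p under 0.05 (17.2%, against 1.55% of all genes) and 1, Elovl3, lower (3.45%, against 3.79%). These lists differ between the sexes in mouse liver; counts of Uty, Kdm5d, Eif2s3y and Ddx3y, which lie on the Y chromosome, were present in all 10 libraries, and Xist had 205 counts in ML 8 and 0 to 5 in the others. The differences between FL and ML medians were not tested.

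**Figure D4:**
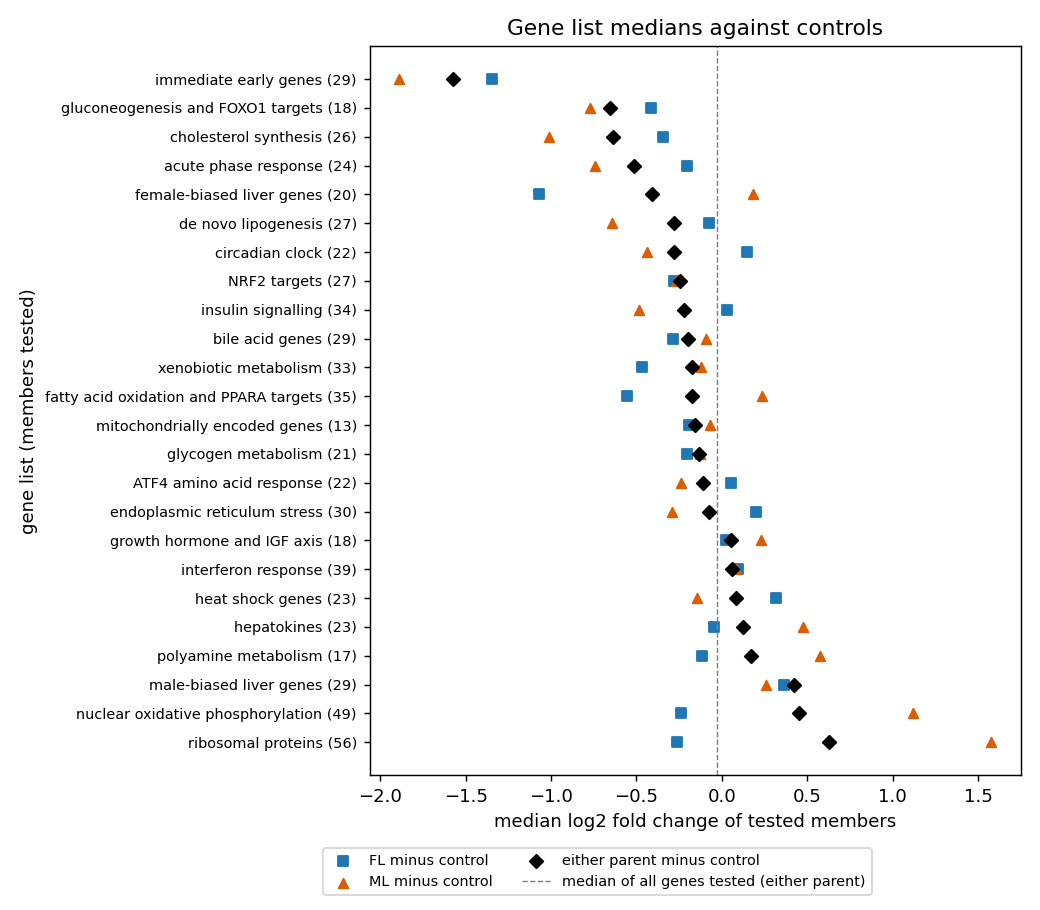
Median log2 fold change of the tested members of 24 gene lists for FL (squares), ML (triangles) and either parent (diamonds) against control; the dashed line is the median of all genes, -0.03. Immediate early genes lie furthest to the left for both kinds of offspring, and ribosomal protein genes differ most between FL (-0.26) and ML (1.58).

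For ribosomal protein genes the combined value depended on whether ML 9 and control 1 were in the fit. All 56 lay above 0 at a median of 0.63, but none had an unadjusted p under 0.05, and FL was at -0.26 while ML was at 1.58. Without ML 9, the library in which short genes stood highest, the median was 0.06, and without control 1, the next in that measure, it was 1.23. With both of these libraries left out it was 0.58, close to the value with all 10. Nuclear genes of oxidative phosphorylation lay above 0 in 46 of 49 cases at a median of 0.45 (FL -0.24, ML 1.12). That median was 0.03 without ML 9, 0.79 without control 1 and 0.38 without both. For acute phase genes, 20 of 24 lay below 0 at a median of -0.51, and -0.11 without control 2. Lcn2, an iron-binding acute phase protein, had 376 CPM in control 2 and at most 42.1 CPM in the other controls, and went from -3.26 to -0.49 without control 2. Serpina3n, a protease inhibitor, went from -1.51 to -0.31.

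Of the secreted hepatokines, 3 of 23 were lower (13.0%, against 3.79% of all genes) and 3 higher (13.0%, against 1.55%) at an unadjusted p under 0.05. The 2 without overlap were Gdf15 and Igfbp1 (8.70%, against 0.425%). Angptl8, which is raised by feeding and inhibits lipoprotein lipase, had 29.3, 9.65, 13.7 and 12.2 CPM in controls, 185, 149 and 26.6 CPM in FL and 44.6, 130 and 17.9 CPM in ML. FL 7 and ML 10 lay below control 1 and the other 4 offspring above all controls. Angptl8 was at 2.44 (SE 0.66; edgeR adjusted p of 0.784), and DESeq2 called it. Circadian clock genes had 3 of 22 members higher at an unadjusted p under 0.05 (13.6%, against 1.55% of all genes), among them Cry1 at 1.05 and Usp2 at 1.15, and 1 lower (4.55%, against 3.79%); their median of -0.28 joined 0.15 in FL with -0.44 in ML and was 0.02 with sample quality weights.

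The other 9 lists of pathways and responses are given by their medians and counts. Medians were -0.18 for 33 xenobiotic genes (FL -0.46, ML -0.12), -0.20 for 29 bile acid genes, 0.05 for 18 genes of the growth hormone and IGF axis, -0.07 for 30 genes of endoplasmic reticulum stress and -0.11 for 22 ATF4 targets. They were 0.09 for 23 heat shock genes, -0.25 for 27 NRF2 targets, 0.06 for 39 interferon response genes and -0.15 for 13 mitochondrially encoded genes. The medians of the growth hormone, endoplasmic reticulum, ATF4, heat shock and interferon lists changed sign under at least 1 other setting. No member of any of these 9 lists passed with edgeR. At an unadjusted p under 0.05, 5 xenobiotic genes (15.2%), 4 NRF2 targets (14.8%), 3 genes of the growth hormone axis (16.7%) and 3 ATF4 targets (13.6%) were lower, against 3.79% of all genes. Higher at that p were 2 ATF4 targets (9.09%) and 2 genes of endoplasmic reticulum stress (6.67%), against 1.55% of all genes. So were 1 gene each of the growth hormone axis (5.56%), the bile acid list (3.45%) and the interferon list (2.56%). Of the 27 NRF2 targets, 21 lay below 0 (77.8%, against 52.9%). In the growth hormone axis Stat5b, the factor that growth hormone activates, was low in every offspring library at -0.60. Among ATF4 targets Asns, which makes asparagine, was at 1.40, and Ddit4, an inhibitor of mTORC1, at -2.11, or -1.29 without control 2.

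No marker of another cell type passed with edgeR. Cholangiocyte markers had 2 of 6 tested members higher at an unadjusted p under 0.05 (33.3%, against 1.55% of all genes). These were Krt7, at 1.33 (SE 0.49), and Krt19, at 1.87 (SE 0.70), keratins of bile duct cells with at most 3.05 and 11.6 CPM, both highest in ML 8. Their list's median was 0.38, and no other cell type list had a member under that p.

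Summed levels of Kupffer cell, sinusoidal endothelial, stellate and erythroid markers were highest in ML 9 among the offspring. The tested cholangiocyte markers were lowest there (24.5 CPM). Mesothelial markers were highest in FL 5 (466 CPM, against 369 CPM in ML 9). Kupffer cell and macrophage markers summed to 262 to 461 CPM in controls and 248 to 1100 CPM in offspring, or at most 401 CPM without ML 9. Sinusoidal endothelial markers summed to 192 to 278 and 146 to 313 CPM, or at most 206 CPM in the other offspring. For stellate markers the sums were 277 to 325 and 215 to 538 CPM, with 295 CPM the next highest. Erythroid markers summed to 184 to 626 CPM in controls, of which control 1 was the highest, and to 127 to 2114 CPM in offspring, with at most 382 CPM outside ML 9. Of 6 pancreatic acinar markers, Amy2a5 and Prss1 had 0 counts in all 10 libraries and Cpa1 and Pnlip at most 10 in any. Cela1, the only acinar marker tested, had 24.5 to 117 CPM in controls and 27.4 to 243 CPM in offspring, with control 1 and ML 9 highest in their groups. Cftr of bile ducts and Ly6g of neutrophils had at most 10 counts. The part of other cells in the gene values was not tested.

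**Figure D5:**
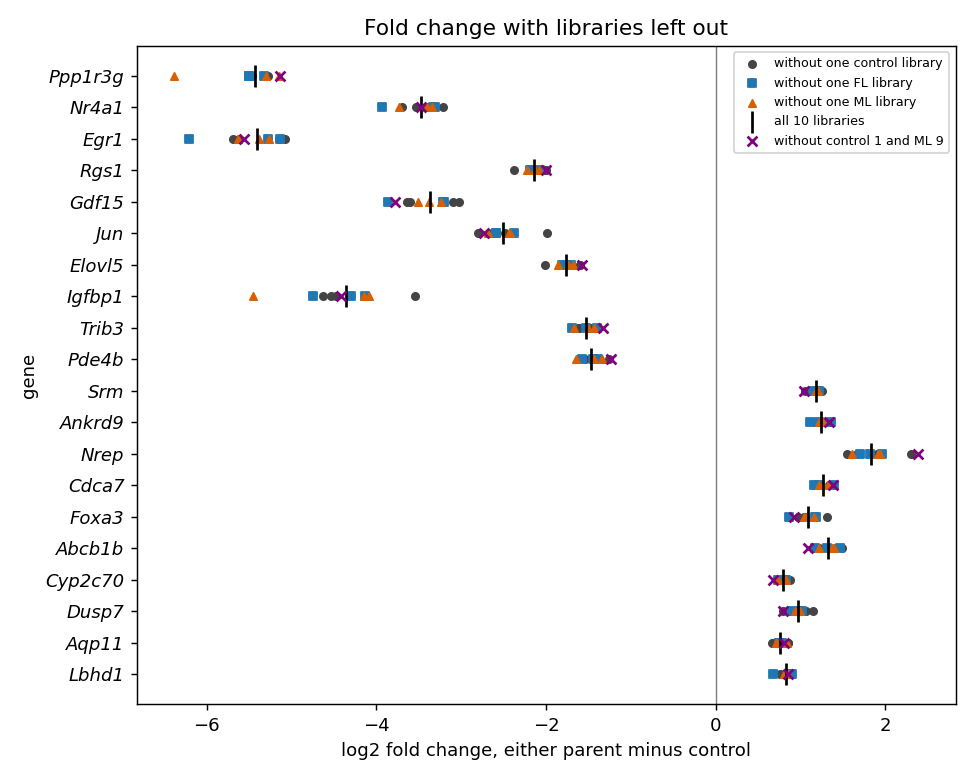
Log2 fold change for either parent against control of the 20 genes with all libraries and (bar), with each of the 10 libraries left out in turn (circles for a control, squares for FL, triangles for ML) and without control 1 and ML 9 (crosses). Every value stays on its side of 0; with 1 library left out, Igfbp1 lies between -5.45 and -3.55 and Srm between 1.05 and 1.25.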

How the data were processed

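Liver RNA of 10 libraries was measured by RNA sequencing: polyadenylated, directional and paired-end on an Illumina HiSeq, per the labels' protocols. The deposited table holds raw counts per gene that the authors made with STAR and featureCounts on GRCm38, per the submitters' processing notes. Neither tool versions nor the strand setting of the counting are known from these sources, so overlapping, antisense and near-identical genes are uncertain.

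Of 46071 genes, 45229 matched GENCODE M21 by identifier; the other 842 held at most 0.0659% of a library's counts. The counts were tested with edgeR 4.0.16 (R 4.3.3): TMM scaling, filterByExpr with a minimum count of 10, 1 coefficient per group over all 10 libraries, robust quasi-likelihood F test, two-sided, and Benjamini-Hochberg adjustment over 14820 genes. The contrast is the mean of FL and ML minus control. A gene passed at an adjusted p under 0.05. The common biological coefficient of variation was 0.448 on 7 residual degrees of freedom. SE is the log2 fold change divided by the square root of F. The procedure was tested on simulated data. Libraries of the same group were compared pairwise, and each pair differed beyond sampling error (chi-square of 82.5 to 573 for each degree of freedom). All 10 were treated as separate, though this comparison cannot tell separate animals from separate preparations of the same animal.

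The genes and the 36 lists (24 of pathways or responses, 12 of cell types) were chosen with earlier results of these data known, and list counts and medians carry no test. Named genes are, on each side, the 10 of lowest p with no overlap, a mean of at least 1 CPM, 1 sign in FL and ML and no clone name, plus Insr and the 3 members of lowest p of each list described; the results of some of these are not reported here. Alternatives were other scaling, DESeq2 1.42.0, limma-voom (3.58.1) with and without sample quality weights, other filters, the offspring as 1 group, a surrogate variable (sva 3.50.0), removal of exon length and GC trends, control 1 and ML 9 left out, each library left out, and a looser threshold.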

Additional observations from a re-analysis of the deposited data

Results flagged for a closer look

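In a group of 4 or of 6 libraries, a library was singled out when its gap to the nearest of the others was larger, relative to the group's range, than Dixon's 95% critical value. Of 108 gene and group pairs over 54 genes, 13 were singled out, 4 in controls and 9 in offspring. The chance rate of about 1 in 20 holds for normally distributed values. The values here were untransformed CPM, with FL and ML pooled, so that rate is no measure for this count.

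Among the lower genes, FL 6 was the highest offspring for 3: Nr4a1 (3.36 CPM, the others 0.525 to 1.30), Egr1 (26.6 CPM, the others 0.456 to 6.59) and Gdf15 (13.3 CPM, the others 3.02 to 6.85). ML 10 was the highest offspring for another 3: Ppp1r3g (6.36 CPM, the others 0.105 to 1.5), Igfbp1 (160 CPM, the others 5.56 to 34.4) and Pdk4 (3.94 CPM, the others 1.51 to 2.15). Foxa3 was highest in FL 5 (175 CPM, the others 76.4 to 111) and Dhps in ML 9 (42.7 CPM, the others 6.83 to 15.4). Moxd1 stood out in FL 7 (159 CPM, the other offspring 0.0310 to 58.7) and, at a far lower level, in control 3 (0.518 CPM, the other controls 0.0448 to 0.0570).

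In controls, control 2 stood apart for Lcn2 (376 CPM, the others 1.08 to 42.1) and Il1rn, the interleukin-1 receptor antagonist (10.1 CPM, the others 1.43 to 2.74). Control 1 stood apart for Abcd2, a peroxisomal transporter (17.1 CPM, the others 4.73 to 6.67). Between the kinds of offspring, Cyp2b9 differed, with ML minus FL at 6.81 on the log2 scale and an edgeR adjusted p of 0.0144.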

How the results depend on the processing

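The count of genes past the threshold for either parent was 0 with edgeR, and also with RLE, upper quartile or no scaling, with a mean CPM of at least 1, with the offspring as 1 group and with a surrogate variable. It was 6 at an adjusted p under 0.10, 38 with DESeq2, 2 with limma-voom (Ppp1r3g and Nr4a1), 8 with sample quality weights, 5 with no filter on low counts, 5 with the exon length and GC trend removed and 1 without control 1 and ML 9 (Fosb). Leaving out each library gave 0 to 1: Fosb without control 1, Nr4a1 without FL 6, and Ppp1r3g without ML 8 or without ML 10. The count in both groups was 6 with DESeq2 and 0 in every other setting where it was computed. The 145 genes without overlap became 976 without control 1 and ML 9, and 165 to 831 with each library left out, the highest without control 1; fewer libraries leave fewer to separate. None of the 54 genes refitted, the 20 named by rank, Insr and the leading members of 16 lists, changed sign in a setting that tested it. Genes under about 1 CPM, such as Fosb, rest on few counts. No paired analysis was possible because the replicate numbers run from 1 to 10 and no number is shared between groups.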

Other observations

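Some genes outside the lists and the naming rule were called lower by DESeq2 for either parent; they were chosen after their values were seen and did not pass with edgeR. Slc38a2, a transporter of neutral amino acids, had 218, 537, 338 and 195 CPM in controls, 108, 118 and 120 CPM in FL and 108, 74.5 and 181 CPM in ML, with no overlap, at -1.44 (SE 0.34; DESeq2 adjusted p of 0.028). Sgk1, a kinase downstream of insulin and glucocorticoids, had 41.7, 42.5, 46.4 and 21.3 CPM in controls and 13.6 to 25.7 CPM in offspring, where ML 10 lay above control 4, and was at -1.20 (SE 0.27; DESeq2 adjusted p of 0.0238). Aqp8, a water channel of hepatocytes and bile canaliculi, had 284, 60.04, 72.0 and 154 CPM in controls, 23.4, 31.6 and 19.5 CPM in FL and 66.5, 72.0 and 22.8 CPM in ML. It was at -1.96 (SE 0.46; DESeq2 adjusted p of 0.0227), with ML 8 and ML 9 within the range of the controls.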
